A study of Mus musculus with 8 samples.

Results

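The Kit receptor and 9 proteins that act next to it at the membrane were followed at the RNA level in mouse dendritic cells given the Kit ligand. The members were Kit, Cbl, Sh2b3, Grb2, Lyn, Ptpn6, Ptpn11, Pik3r1, Gab2 and Inpp5d, listed by name for their place in Kit signalling. Each was read from the probe set that the platform annotation assigns to that gene symbol alone. Of the 10 genes, 9 had such a probe set, exactly 1 each, and all 9 were bright enough to be among the 12668 probe sets tested of 41345 on the array. No probe set was named Lyn in that annotation, and Lyn was not analysed here.

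Kit is a receptor tyrosine kinase that dimerises when it binds stem cell factor (SCF) and phosphorylates tyrosines in its own cytoplasmic part. Those phosphotyrosines are docking sites: Src-family kinases such as Lyn bind near the membrane, Grb2 links the receptor to RAS and MAP kinases, and Pik3r1 and Gab2 bring in phosphatidylinositol 3-kinase. Cbl, Sh2b3, Ptpn6 and Inpp5d limit the signal, while the phosphatase Ptpn11 is needed for full RAS activation. Kit is best known from haematopoietic progenitors and mast cells, and it is also found on subsets of dendritic cells.

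The cells were wild-type dendritic cells from the bone marrow of female C57BL/6 mice, grown with GM-CSF at 20 ng/ml in normoxia (21% oxygen) for 7 days and purified for CD11c to over 98%. All cultures, the controls included, then spent 2 days in hypoxia (2% oxygen) with GM-CSF, and were then given SCF (100 ng/ml) or no SCF, the medium group, for the last 6 hours. This was done in 4 separate experiments, named BC, D2, E and I, each of which gave 1 medium array and 1 SCF array. The labels do not give the number of mice behind an experiment, and these are bulk cultures, so fewer cells expressing a gene and less RNA per cell cannot be told apart. Itgax, which encodes CD11c, was read at 10.08 ± 0.12 on the log2 scale in the medium arrays (SD, n = 4) and at 10.02 ± 0.23 in the SCF arrays. All 16 dendritic cell markers named on the array lay above the intensity filter, where 11351 of 22180 genes did. So did 13 of 14 monocyte and macrophage markers, so passing the filter does not set dendritic cells apart from these. Array medians lay between 13.3 and 13.9 on the linear scale. The number of arrays, 4 a group, limits the precision.

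Levels below are log2 intensities, comparable between arrays for 1 probe set but not between genes, and differences are SCF minus medium within an experiment. Over the 9 members the SCF difference was small, and none passed the test. The differences among the 4 experiments passed the test for Kit. The median absolute SCF difference was 0.04 for the members and 0.05 over all tested probe sets. The median range of the experiment means was 0.18 for the members and 0.20 over all tested probe sets. A range over 4 means of 2 arrays is wider by construction than a difference of 2 means, so the 2 measures are not set against each other. Experiment accounted for a median of 85.8% of the sum of squares of a member, against 61.8% over all tested probe sets, and SCF for 6.18% against 5.19%, where experiment has 3 degrees of freedom and SCF has 1.

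**Figure D1:**
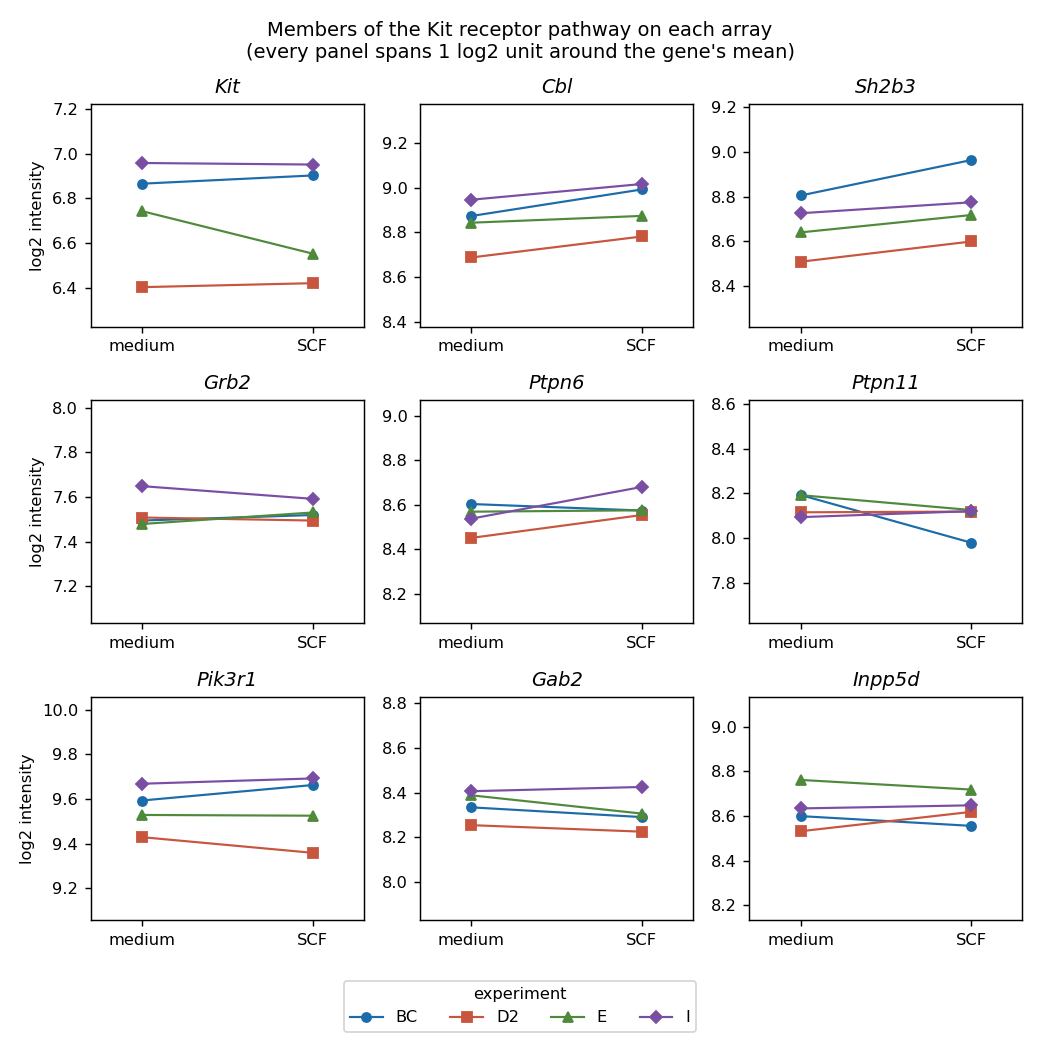
Log2 intensity (y axis) of the 9 measured members in medium and with SCF (x axis). Each line joins the 2 arrays of 1 experiment, and every panel spans 1 log2 unit. The lines of Kit stay apart by experiment, from 6.40 in D2 to 6.96 in I, while those of Ptpn11 lie together except the SCF array of BC.

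Kit, the receptor, stood in the medium arrays of BC, D2, E and I at 6.87, 6.40, 6.74 and 6.96. In the SCF arrays, in the same order, it stood at 6.90, 6.42, 6.55 and 6.95. The groups overlapped over their whole range, and E was the only experiment in which the 2 arrays lay more than 0.04 apart. On average the SCF arrays differed by −0.04 from medium (SE 0.06), with limma's adjusted p at 0.969. As a fold this is 0.976, with a 95% interval of 0.887 to 1.07. Without experiment E the difference was 0.02.

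Among the genes that carry the signal forward, Pik3r1 encodes the p85 alpha regulatory subunit of phosphatidylinositol 3-kinase. Its levels in BC, D2, E and I were 9.59, 9.43, 9.53 and 9.67 in medium, and 9.66, 9.36, 9.53 and 9.69 with SCF. Medium and SCF arrays lay side by side in each experiment, and the difference was 0.0049 (SE 0.05, limma adjusted p = 0.998). The adaptor gene Grb2 ranged from 7.48 to 7.65 in medium and from 7.49 to 7.59 with SCF, a difference of 0.0015 (SE 0.05). Its highest arrays were both those of I. Gab2, a scaffold that is phosphorylated after receptor activation, ranged from 8.25 to 8.41 in medium and from 8.22 to 8.43 with SCF. In 3 of 4 experiments its SCF array was the lower one, and the mean difference was −0.03 (SE 0.05, limma adjusted p = 0.963), which was −0.02 without E and −0.05 without I. Ptpn11, the SHP-2 phosphatase, ranged from 8.09 to 8.19 in medium and with SCF at 7.98, 8.12, 8.13 and 8.12 in BC, D2, E and I. The SCF array of BC was apart from the other 3, and the difference of −0.06 (SE 0.06, limma adjusted p = 0.945) was −0.01 without BC.

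Among the genes that restrain the signal, Sh2b3, which encodes the adaptor Lnk, had the largest SCF difference of the 9 members. Its medium arrays of BC, D2, E and I read 8.80, 8.51, 8.64 and 8.73, and its SCF arrays 8.96, 8.60, 8.72 and 8.77. Every SCF array lay above the medium array of its experiment, yet the groups overlapped because the experiments lay further apart than the pairs. On average they lay 0.09 above (SE 0.05, 95% interval −0.02 to 0.21), at an adjusted p of 0.945 in limma. Cbl, a ubiquitin ligase that targets activated Kit for degradation, read 8.87, 8.69, 8.84 and 8.95 in medium and 8.99, 8.78, 8.87 and 9.02 with SCF, in the order BC, D2, E and I. The mean difference of Cbl was 0.08 (SE 0.05), with a 95% interval of −0.04 to 0.19 and the same adjusted p. With array medians equalized Cbl was higher with SCF in 3 of 4 experiments in place of 4, and Sh2b3 still in 4. Of the 9 members these 2 were higher with SCF in all 4 experiments, and 0 were lower in all 4, while 6.43% of the tested probe sets were higher in all 4 and 6.44% lower in all 4. Flipping the signs of the 4 pairs in an exact permutation test, two-sided, gave p = 0.125 for each of Sh2b3 and Cbl, the smallest value possible.

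The remaining restraining genes are both phosphatase genes. Ptpn6, which encodes the SHP-1 tyrosine phosphatase, ranged from 8.45 to 8.60 in medium and with SCF at 8.57, 8.55, 8.58 and 8.68 in BC, D2, E and I. It differed by 0.06 (SE 0.05, limma adjusted p = 0.948), a value that was 0.03 without I and 0.08 without BC. Inpp5d, which encodes the lipid phosphatase SHIP-1, ranged from 8.53 to 8.76 in medium and from 8.56 to 8.72 with SCF, a difference of 0.0035 (SE 0.05, limma adjusted p = 0.999). Its highest arrays in both groups were those of E.

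None of the 9 members passed an adjusted p of 0.05 for SCF against medium in limma, where 0% of the tested probe sets passed. At an unadjusted p under 0.05 there were 0 of 9 members, against 4.21% of the tested probe sets, and with an intensity trend in limma's variance prior there was 1. The medium and SCF arrays overlapped for all 9, and 0.971% of the tested probe sets had no overlap. The median difference of the members was 0.0035, against 0.00077 over all tested probe sets. For all 9 the 95% interval of the fold change, not adjusted for the number of genes, lay between 0.87-fold and 1.16-fold. Under array medians equalized, Grb2, Inpp5d and Pik3r1 changed sign, at −0.02, −0.02 and −0.01.

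**Figure D2:**
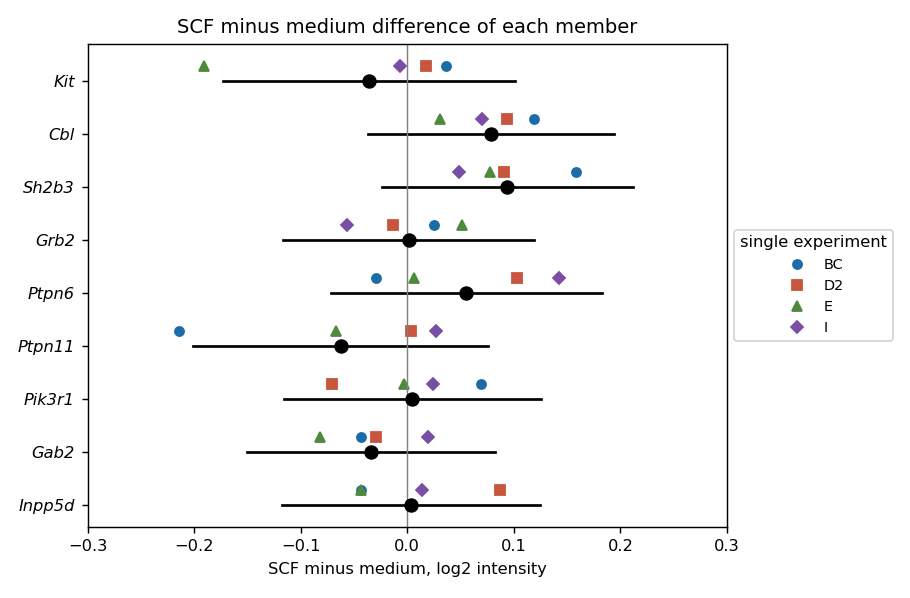
SCF minus medium in log2 intensity (x axis) for each member (y axis). Black points and bars are the limma estimate and its 95% interval, and coloured symbols are the 4 experiments. Every bar crosses 0; Sh2b3 (0.09) and Cbl (0.08) have all 4 symbols above 0, and the lowest symbols are Ptpn11 in BC (−0.21) and Kit in E (−0.19).

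The levels were then compared among the experiments, with SCF or medium as a term. Kit had its lowest mean in D2, at 6.41 (arrays at 6.40 and 6.42), followed by E at 6.65, BC at 6.88 and I at 6.96. From D2 to I this is a range of 0.54, or 1.46-fold, larger than that of 95.8% of the tested probe sets. Kit was the 1 member of 9 called in limma's F test of the experiments (adjusted p = 0.0412), where 3.35% of the tested probe sets were called. In the order from D2 to I, E was above D2 by 0.24 (95% interval 0.04 to 0.43), BC above E by 0.24 (0.04 to 0.43) and I above BC by 0.07 (−0.12 to 0.26), so that I and BC were not separated beyond their spread. These intervals are not adjusted, and they and the F test rest on the scatter within the medium and SCF pairs of cultures. The order was the same with array medians equalized and after a repeated quantile normalization.

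The call for Kit lay close to the threshold. It was lost when any 1 experiment was left out, at an adjusted p of 0.0746, 0.199, 0.0672 and 0.0928 with BC, D2, E and I left out in turn, and with no intensity filter (0.0635). Without D2 the range of the experiment means was 0.31. With the stricter filter the adjusted p was 0.00557, within a range of 0.00557 to 0.199 over the 12 alternatives.

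Cbl and Pik3r1 had the same order of experiments as Kit under all 3 scalings, at smaller size, and Sh2b3 differed from it by being highest in BC. Sh2b3 ranged over 0.33 (adjusted p = 0.109), Pik3r1 over 0.29 (0.140) and Cbl over 0.25 (0.184) in the same limma F test, and none of these passed. These ranges rested in part on 1 experiment, at 0.20 for Sh2b3 without BC or 0.21 without D2, and without D2 at 0.15 for Pik3r1 and 0.12 for Cbl. With Kit, these 4 had an unadjusted p under 0.05, against 24.2% of the tested probe sets. With the intensity trend in the variance prior all 4 were called, with adjusted p of 0.0174 for Pik3r1, 0.0184 for Sh2b3 and 0.0424 for Cbl, and 1527 probe sets were called in place of 424. The ranges of the other 5 members lay between 0.07 for Ptpn11 and 0.18 for Gab2. For 8 of the 9 members D2 had the lowest experiment mean, against 32.2% of the tested probe sets. The exception was Ptpn11, lowest in BC. This count was made after the values were seen, and it was 6 of 9 with array medians equalized, where 27.4% of the tested probe sets were lowest in D2, and 6 of 9 after a repeated quantile normalization. Experiment I was the highest for 6 of 9 members, against 19.7% of the tested probe sets. Some of these orders are narrow: the means of Grb2 in D2 and BC were 7.501 and 7.507.

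**Figure D3:**
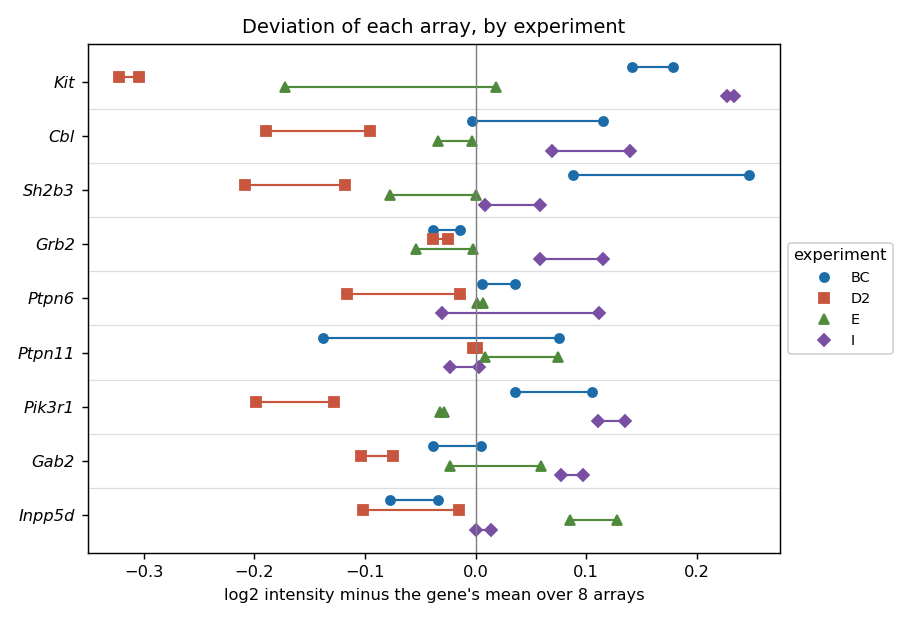
Log2 intensity of each array minus the mean of that gene over 8 arrays (x axis), by member (y axis). Each line joins the 2 arrays of 1 experiment. For Kit, Cbl, Sh2b3 and Pik3r1 both D2 arrays lie below all others; the widest distance between experiments is that of Kit, 0.54.

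Pairs of members were set against each other over the 8 arrays, which come from 4 experiments and are not independent. Pearson's r over the 36 pairs had a median of 0.53 and lay between −0.51, for Sh2b3 and Ptpn11, and 0.95, for Kit and Pik3r1. Cbl stood at 0.88 with Kit and 0.90 with Pik3r1. Pik3r1 was also 1 of the 8 genes most like Kit among 11350 tested genes, in place 8. Above it came Stat5b, a transcription factor gene of cytokine signalling (r = 0.97), then Sik2, Smarcc2 and Vps37b (0.97 each), Zfyve1 (0.97), Tbc1d1 and Rfx7 (0.96 each). Without the 2 D2 arrays, which lay farthest from the median of Kit, r was 0.89 for Pik3r1, 0.92 for Stat5b and 0.69 for Cbl. Of the 11350 genes, 95 had an r above 0.9 with Kit, or 0.837%, and 75 had one below −0.9. The 3 genes least like Kit were Sqor (r = −0.99), 2300009A05Rik and Sars (−0.98 each). Sqor, which encodes a mitochondrial sulfide oxidase, had its highest mean in D2, at 6.26, and its lowest in I, at 5.89.

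The DNA just before the start of Kit and Pik3r1 is shown because these 2 members kept most closely together across the arrays. The sequences are those of RefSeq (GRCm38.p6), 250 bases before the annotated start, read along the gene's strand, 5′ to 3′, with every GC box in capitals (GGGCGG, or its reverse complement). Kit lies on the plus strand, with the window at chr5:75574737-75574986, and the first start of Pik3r1 on the minus strand, with the window at chr13:101768218-101768467.
Kit: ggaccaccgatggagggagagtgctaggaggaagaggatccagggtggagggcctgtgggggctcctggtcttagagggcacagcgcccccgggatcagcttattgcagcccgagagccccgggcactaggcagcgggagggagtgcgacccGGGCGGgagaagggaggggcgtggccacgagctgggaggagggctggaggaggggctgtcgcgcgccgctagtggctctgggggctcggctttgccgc
Pik3r1: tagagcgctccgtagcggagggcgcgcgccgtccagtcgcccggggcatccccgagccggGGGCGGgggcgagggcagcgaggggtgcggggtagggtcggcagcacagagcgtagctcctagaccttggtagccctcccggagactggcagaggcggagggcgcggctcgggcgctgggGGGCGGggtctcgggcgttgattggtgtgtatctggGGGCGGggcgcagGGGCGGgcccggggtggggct

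Kit had 1 GC box and Pik3r1 had 4, and 32.7% of the 32851 promoter windows of the same length in that table held at least 1 on either strand. The windows were 70.8% and 76.4% G and C. The forms searched for GATA factors were AGATAA with its variant ending in G, and the same 2 with T as the first base, on both strands. Neither window shown held one, while 26.5% of all windows did. Neither held an E-box (CANNTG, read on both strands), while 66.2% did. The other annotated start of Pik3r1 differed, with 0 GC boxes, 2 GATA matches and 1 E-box in its window. The other start of Kit had the same counts as the first, but its window (chr5:75574741-75574990) overlaps the first almost entirely. Cbl had 3 GC boxes and Sh2b3 had 0, so the 4 members with the widest ranges did not all share the motif. Among members with narrower ranges, Ptpn6 had 5, Ptpn11 had 3, and Grb2 and Inpp5d had 0. A match is a string of letters only. No window of Gab2 or Lyn was used here.

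The wider pathway was described with 6 lists of 121 genes, of which 111 were named on the array and 100 were tested. For SCF against medium 0 of 100 passed, and 4 had an unadjusted p under 0.05 in limma, in number close to the 4.21% of all tested probe sets. The differences lay above 0 for 49 genes and below 0 for 51, with a median of −0.0012. The 4 were Vav2, a guanine nucleotide exchange factor gene, at 0.16 (SE 0.05), the adaptor gene Sla at −0.19 (SE 0.08), Rasgrp3, an exchange factor for RAS, at −0.13 (SE 0.05), and the transcription factor gene Mitf at −0.13 (SE 0.06). Each had the same sign in all 4 experiments, and they were chosen after their values were seen. The ligand gene Kitl lay below the intensity filter at 3.31 in medium and 3.22 with SCF. Of 4 class III receptor tyrosine kinase genes other than Kit, Csf1r and Flt3 were tested and did not pass, at −0.05 (SE 0.07) and 0.04 (SE 0.08), and Pdgfra and Pdgfrb lay below the filter.

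Among the experiments 5 of the 100 pathway genes were called in limma's F test, or 5% against 3.35%, and 39 had an unadjusted p under 0.05, or 39% against 24.2%. Rasgrp3 had the widest range of the 5, 0.89, with its highest mean in BC, at 5.82, and its lowest in E, at 4.93 (adjusted p = 0.0125). Spry1, an inhibitor of RAS signalling, ranged over 0.67, with its highest mean of 6.08 in D2 and its lowest of 5.42 in I (0.0452). Plcg1, which encodes a phospholipase that binds activated receptors, ranged over 0.53 (0.0425), and Pik3r3, which encodes another regulatory subunit of phosphatidylinositol 3-kinase, over 0.48 (0.0386), each with its lowest mean in E. Vav2 ranged over 0.43 with its lowest mean of 6.45 in D2 and its highest of 6.88 in I (0.0426), the order of Kit. Of these 5 genes only Rasgrp3, without D2 or I, and Spry1, without BC, stayed called when an experiment was left out. In 5 of the 6 lists, the count called was 0 of 17 for ligand and adaptors, 2 of 24 for kinases and lipid enzymes, 1 of 22 for brakes, 0 of 14 for transcription factors known to act on Kit and 0 of 2 for the receptor genes. Of the Src family beside Lyn, Fyn, Fgr, Src and Yes1 were tested and 0 passed either test.

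Markers of other cells that express Kit were set beside it, and the marker genes named were chosen after their values were seen. Of 16 mast cell markers named on the array 4 were tested and 12 lay below the intensity filter. The 12 included Fcer1a, a chain of the high-affinity IgE receptor and also a basophil marker, at 2.72 in medium. Over the tested mast cell markers the mean log2 intensity lay between 5.09 and 5.40 in medium and between 5.01 and 5.25 with SCF. Cpa3, a protease gene of mast cells and basophils, differed among the experiments in limma's F test (adjusted p = 0.0333), with means of 4.01 in D2, 4.34 in E, 5.02 in BC and 4.82 in I. D2 and E were thus the lowest 2 experiments for Cpa3 as for Kit, while BC and I were in the other order. The D2 mean of Cpa3 lay below the intensity filter of 4.05, with its SCF array at 3.90. Mitf, another of the 4 tested mast cell markers, ran differently and did not pass (0.0677), with means of 7.31 in E, 7.13 in D2, 6.96 in I and 6.89 in BC. Slc18a2, a monoamine transporter gene and the last of the 4, ranged over 0.08, with its highest mean in E. The call of Cpa3 was kept without E and lost without each of the other 3 experiments. Gata2, a transcription factor gene of mast cells and progenitors, did not pass (0.0908) and was highest in BC, at 5.35, and lowest in I, at 4.94. Of 17 progenitor markers named on the array, 8 including Kit were tested. Of these, Sox4 was called beside Kit (0.0404, and lost without any 1 experiment), and Cd34 was not, at 4.13 in medium and 3.99 with SCF. The order of Sox4 was not that of Kit, with means of 6.13 in E, 6.29 in D2, 6.53 in I and 6.81 in BC. Myb was also lowest in E, at 5.53, while Cd34 was lowest in D2, at 3.98, over a range of 0.13. The part of these cells in the level of Kit was not tested.

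Monocyte and macrophage markers also differed among the experiments, in orders other than that of Kit. Of 13 tested, 6 were called in limma's F test, against 3.35% of the tested probe sets. Cd14, a lipopolysaccharide coreceptor gene, had means of 4.78, 5.29, 6.01 and 4.78 in BC, D2, E and I (adjusted p = 0.0124). Ccr2, a monocyte chemokine receptor gene, had means of 5.29, 5.88, 6.38 and 5.33 in the same order (0.0242). Both were highest in E, where Kit was next to lowest, and both lost their call without E. Ly6c2 was lowest in BC, at 5.66, and highest in I, at 7.01 (0.0149), and lost its call without BC and without E. F13a1, a coagulation factor gene, ran in the reverse order of Kit, with means of 7.48 in D2, 7.12 in E, 6.82 in BC and 6.70 in I (0.0408; r with Kit −0.91), and its call was kept only without BC. The other 2 called, Fcgr1 (0.0360) and C1qb (0.0428), were highest in E and also lost their calls without it. Fcgr1 lost its call without I as well, and C1qb without I and without D2. The mean over the 13 markers lay between 7.02 and 7.47 in medium and between 6.78 and 7.41 with SCF. Among the 16 dendritic cell markers 0 were called, with a median range of 0.20. The part of cell composition in the differences among experiments was not tested.

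**Figure D4:**
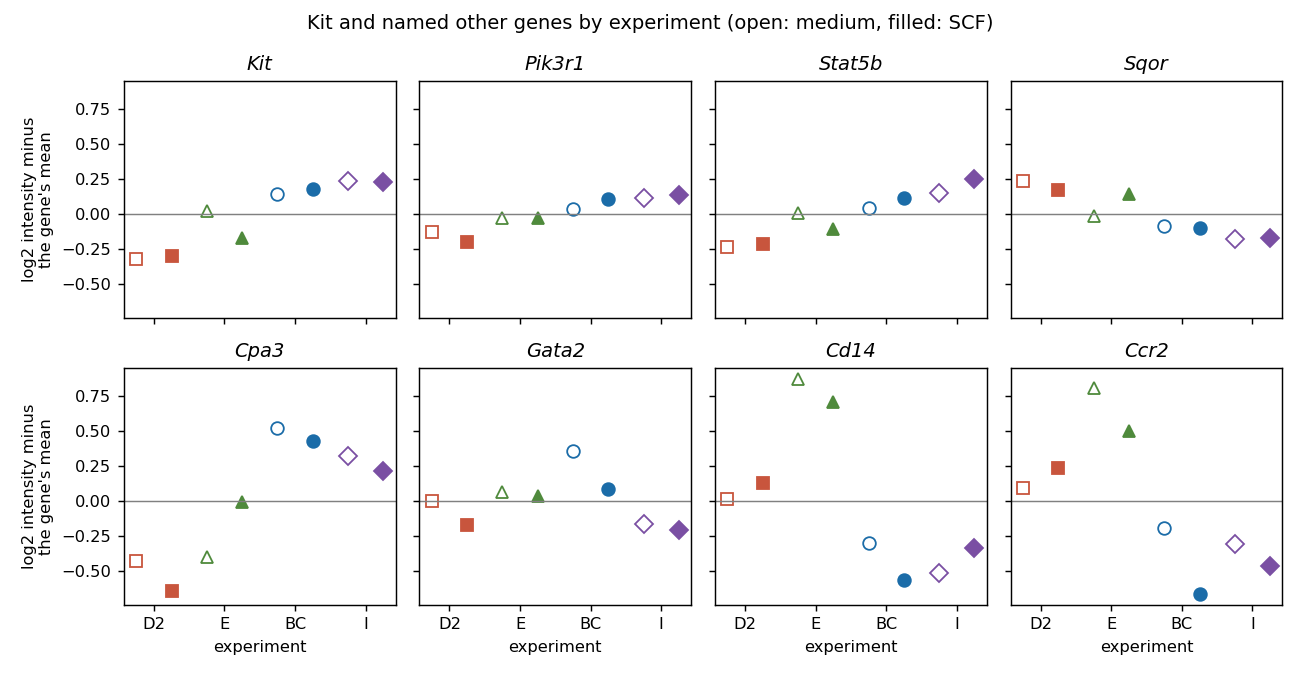
Log2 intensity minus the gene's mean over 8 arrays (y axis) by experiment (x axis, in the order of the mean of Kit), with open symbols for medium and filled symbols for SCF. Pik3r1, Stat5b and, less regularly, Cpa3 are lowest in D2 as Kit is, Sqor runs the other way, and Cd14 and Ccr2 are highest in E.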

How the data were processed

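Total RNA of 8 cultures was labelled with biotin and read on 1-colour Affymetrix whole-transcript arrays, 1 array each. The authors deposited a linear intensity for every probe set on every array, and the submitters' processing notes name RMA, with no version. From these deposited values log2 was taken here, with no pseudocount and no further normalization. Probe sets with a gene symbol were tested where their mean log2 over all arrays reached the median of such means, 4.05, since the table has no detection call. SCF was compared with medium with limma 3.58.1 (R 4.3.3), experiment being a fixed replicate block, with Benjamini-Hochberg adjustment over 12668 probe sets, and 7.39 degrees of freedom with the prior. The series' design text says that each experiment's cells were generated, purified and then split between the 2 conditions, which pairs the arrays. Arrays of 1 experiment correlated at 0.36 to 0.46 after removal of group means. The moderated F test of the experiment coefficients came from the same fit. The fit was tested on simulated data.

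All 10 members were named whatever their values. From the lists, passing genes were named where 5 or fewer passed, otherwise the 3 with the smallest p. The members, lists and markers were chosen with earlier results of these data known. Other genes were named outside that rule. Among them are Kitl, the other class III receptor genes, the Src-family genes and all 6 called monocyte and macrophage markers. No label says whether arrays were processed in batches. The design text calls the 4 experiments biological replicates without giving the mice behind each. The p-values for SCF set its difference against the spread of that difference over these experiments. The F test of the experiments uses the same error, the scatter within pairs of cultures split from the same cells. No experiment had a repeated preparation of cells, so the F test does not set experiments against the spread between preparations.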

Additional observations from a re-analysis of the deposited data

Results flagged for a closer look

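In 27 groups of 4 values (9 members, each in medium, with SCF and as SCF minus medium), 2 had a value far from the other 3, where about 1 in 20 groups, or 1.35, would by chance. With SCF, Ptpn11 stood at 7.98 in experiment BC and between 8.12 and 8.13 in the others. With SCF, Ptpn6 stood at 8.68 in experiment I and between 8.55 and 8.58 in the others.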

How the results depend on the processing

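For SCF against medium the count of members and of probe sets called was 0 in limma under all 14 alternatives, among them the unpaired fit, with no replicate block (0), and a random replicate block (0). Of 126 member differences 117 kept their direction and 9 reversed, with adjusted p from 0.703 to 1.00. Many of the 117 could not reverse. The filters, variance priors, block settings and mean of a gene's probe sets leave a member's estimate unchanged by construction. Reversals could come only from log2(value + 16), the equalized or repeated normalization and leaving out 1 experiment. With array medians equalized, Grb2 was −0.018, Inpp5d −0.016 and Pik3r1 −0.014. Leaving out 1 experiment, Grb2 lay between −0.015 and 0.021, Inpp5d between −0.024 and 0.019, Kit between −0.060 and 0.016 and Pik3r1 between −0.017 and 0.030. For the differences among experiments, 424 probe sets were called as reported, 194 with no filter, 1396 with the stricter filter, 1210 with log2(value + 16), 1527 with the intensity trend and 38 to 177 without 1 experiment. Of the members, 1 was called as reported, 0 with no filter, 3 with the stricter filter, 2 with log2(value + 16), 4 with the trend and 0 to 0 without 1 experiment, where fewer arrays enter the fit. The cause of the other changes was not tested. Counts with equalized or repeated normalization for the lowest experiment, and other genes without each experiment, were added after seeing the data. How far the signal lay above background cannot be read from the table.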
